A study of Mus musculus with 10 samples.

Results

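Amino acids enter and leave liver cells through carrier proteins of the solute carrier (SLC) families. Here 9 carriers of the SLC43, SLC38 and SLC6 families were compared between livers with and without the glucagon receptor. They were Slc43a1, Slc43a2, Slc43a3, Slc38a2, Slc38a4, Slc6a6, Slc6a9, Slc6a12 and Slc6a13. Their probes were found on the array by RefSeq accession or, failing that, by gene name or an older synonym. All 9 were present, with 16 probes between them, and all 16 probes passed the filter on dim probes described below, so the 9 carriers stand among 18921 genes tested. Gene expression was measured by 2-colour Agilent microarray in livers of 5 wild-type mice (WT, labelled wt/wt: 3 males and 2 females) and 5 mice lacking the glucagon receptor (KO, labelled GCGR ko/ko: 2 males and 3 females). No treatment is named in the labels, and strain, age, feeding state, the deleted part of the gene and the cells in which it was deleted are not given in the sources used here. Each liver's RNA, in Cy5, was hybridised with the same pooled mouse reference RNA, in Cy3. Every value below is a log2 ratio of liver over reference, so 1 unit is a 2-fold step, and levels of different genes are not set against each other.

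The SLC43 carriers Slc43a1 and Slc43a2 move large neutral amino acids such as leucine and phenylalanine down their gradient without sodium, while Slc43a3 carries purine nucleobases. SLC38 carriers couple the uptake of small neutral amino acids such as alanine and glutamine to sodium, and SLC6 carriers use sodium and chloride to take up glycine, taurine, betaine or GABA. Glucagon raises cAMP in hepatocytes and promotes the uptake and breakdown of amino acids by the liver, while loss of its receptor is known to raise amino acids in blood.

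The receptor gene matched the genotype labels, with Gcgr values of 7.74 to 8.14 among WT animals but 0.28 to 0.36 among KO animals. The arrays lay on 4 slides, scanned one after the other. Slide 1 held WT 1, WT 2, KO 1 and KO 2, slide 2 held KO 3 and KO 4, slide 3 held WT 3, WT 4 and KO 5, and slide 4 held WT 5. Arrays of slides 1 and 2 were brighter, with a median Cy5 signal over background of 112 to 134 against 58.7 to 78.9 for slides 3 and 4. All 3 KO females were on slides 1 and 2 and both WT females on slide 3. The mean log2 ratio of 7 hepatocyte markers, of 8 listed, was 6.34 to 6.81 in WT and 6.58 to 6.70 in KO livers, and none of them passed for genotype. Of 3 adipocyte markers measured the mean reached 2.49 in KO 1 and 1.90 in KO 5, the male KO livers, against -0.07 to 0.42 in the other livers, and of 2 neutrophil markers it reached 2.86 in KO 5 against -0.09 to 1.17 elsewhere. The adipocyte values rested on Cfd, which was higher in male KO than male WT livers by 5.63, against 0.35 for Retn and -0.22 for Plin1. Calls of the carriers and of the other named genes that differ without both male KO livers are given beside them. With sex in the model, that setting compares KO females of slides 1 and 2 with WT females of slide 3. Slide and genotype cannot be told apart in it, for any gene.

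Upstream sequence of the carriers was read from RefSeq windows (assembly GRCm38.p6) of 300 bases, 250 before and 50 after an annotated start. Of the 9 carriers 7 had a window, 18 windows in all, and some carriers had several starts. The 18 windows were searched on both strands for the cAMP response element TGACGTCA, its core TGACG (which lies within it), the ATF4-type element TGATGNAA and the 15-base palindromic glucocorticoid element. TGACG was found in 4 of the 18 windows (22.2%), against 20.8% of all 32851 windows, and the other motifs were found in none, against 1.79%, 3.97% and 0.00913% of all windows. The 250 bases before the start are shown for Slc43a1, the carrier that fell furthest in KO livers, and for the 4 windows with TGACG, which is in capitals on either strand. The last match in Slc6a9 runs past the end of the printed sequence. They are Slc43a1 (chr2:84840073-84840322, plus strand), Slc38a4 (chr15:97031214-97031463, minus strand), Slc38a2 (chr15:96699729-96699978, minus strand), Slc6a9 (chr4:117849100-117849349, plus strand) and Slc6a12 (chr6:121342324-121342573, plus strand).
Slc43a1: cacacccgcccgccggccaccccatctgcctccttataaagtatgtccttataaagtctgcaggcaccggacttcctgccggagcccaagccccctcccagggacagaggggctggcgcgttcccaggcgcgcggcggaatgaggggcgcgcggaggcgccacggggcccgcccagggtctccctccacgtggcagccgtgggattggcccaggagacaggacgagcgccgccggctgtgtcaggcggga
Slc38a4: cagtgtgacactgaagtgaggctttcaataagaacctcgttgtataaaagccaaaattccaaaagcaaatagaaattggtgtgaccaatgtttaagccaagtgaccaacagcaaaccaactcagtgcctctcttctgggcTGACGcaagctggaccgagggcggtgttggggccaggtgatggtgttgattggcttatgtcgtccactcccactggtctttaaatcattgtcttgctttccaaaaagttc
Slc38a2: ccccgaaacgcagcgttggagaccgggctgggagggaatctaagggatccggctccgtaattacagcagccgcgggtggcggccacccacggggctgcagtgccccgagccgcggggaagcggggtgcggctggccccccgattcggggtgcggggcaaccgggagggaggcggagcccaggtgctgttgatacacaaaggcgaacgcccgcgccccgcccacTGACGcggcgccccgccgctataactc
Slc6a9: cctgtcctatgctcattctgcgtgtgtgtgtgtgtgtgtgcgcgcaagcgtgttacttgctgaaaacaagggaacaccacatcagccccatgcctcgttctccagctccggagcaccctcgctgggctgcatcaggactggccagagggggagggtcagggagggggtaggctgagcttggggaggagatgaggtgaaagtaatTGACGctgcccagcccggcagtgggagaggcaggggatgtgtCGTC
Slc6a12: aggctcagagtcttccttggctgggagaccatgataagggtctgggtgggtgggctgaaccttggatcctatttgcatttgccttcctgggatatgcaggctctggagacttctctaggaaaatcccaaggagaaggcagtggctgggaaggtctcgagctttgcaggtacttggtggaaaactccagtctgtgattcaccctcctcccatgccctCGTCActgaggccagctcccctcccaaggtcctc

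A match is a description of these letters, and which start the livers used was not measured. The windows shown for Slc38a4 and Slc6a9 are each 1 of 3, and that of Slc6a12 is 1 of 5, some of which overlap. Slc43a1 and Slc38a2 have 1 window each.

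Of the 9 carriers, 3 fell and 2 rose in KO livers. The neutral amino acid carriers Slc43a1 and Slc38a4 and the betaine and GABA carrier Slc6a12 were lower, and the taurine carrier Slc6a6 and the glycine carrier Slc6a9 were higher. A gene passed where limma's Benjamini-Hochberg adjusted p, over all 18921 genes and with sex in the model, was under 0.05. In all, 1127 genes passed (5.96%), 2.88% as higher and 3.08% as lower, against 5 of the 9 carriers (55.6%). The carriers were chosen with earlier results of these data known, so these shares are a description and not a test. With median centring of the arrays in place of loess, 72.0% of the genes that passed were higher, and late removal of outlier spots (after the background fit) gave 59.0%, against 48.4% here. The groups were fully apart in the same 5 carriers and in 6.06% of all genes, with KO above WT in 2.98% and below in 3.08%. An unadjusted p under 0.05 was seen for 20.9% of all genes. The median difference of the 9 carriers was 0.06 and that of all genes 0.00. In whole liver RNA, fewer cells of a type and less RNA per cell cannot be told apart.

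**Figure D1:**
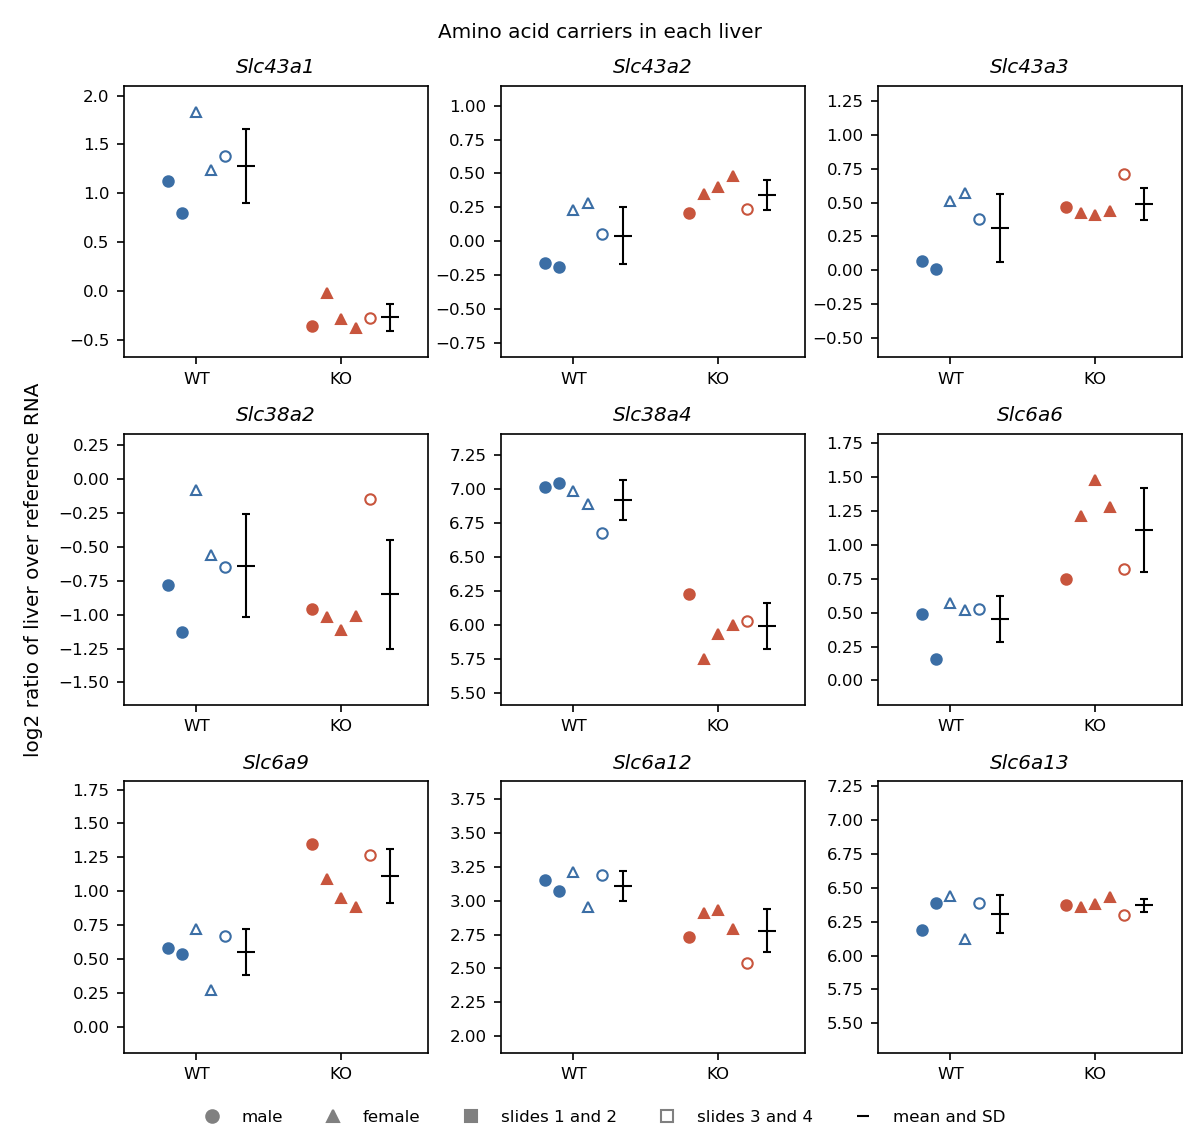
Log2 ratio of liver over reference RNA for each carrier in 5 WT (blue) and 5 KO (red) livers, 1 panel a gene; circles are males, triangles females, filled symbols slides 1 and 2, open symbols slides 3 and 4, and the black bar is the mean with its SD. Each axis starts at its own level and spans at least 2 units; the groups are fully apart in Slc43a1, Slc38a4, Slc6a6, Slc6a9 and Slc6a12.

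Slc43a1 encodes LAT3, a carrier of branched-chain amino acids and phenylalanine. WT 1 to WT 5 had log2 ratios of 1.13, 0.80, 1.83, 1.24 and 1.38, while KO 1 to KO 5 had -0.36, -0.02, -0.29, -0.38 and -0.28. Every WT liver was above the reference RNA and every KO liver below it. The means were 1.28 ± 0.38 and -0.27 ± 0.14 (SD, n = 5 each), a difference of -1.59 (SE 0.14, limma adjusted p = 0.000131) or 3.02-fold. It ranked 31st of all genes by p. The signal was low, at a net Cy5 of 45.5 to 339, and the probe was well above background in 5 of 5 WT and 4 of 5 KO livers. The difference was -1.16 within slide 1 and -1.81 within slide 3, and -2.59 on the scanner software's own log ratio. It passed under all 23 alternatives that kept the probe. In mm7, the build the array files use, its probe spans chromosome 2 from 84706828 to 84706887. Exon positions in that build were not analysed here.

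Slc43a2 encodes LAT4, which carries a similar range of neutral amino acids. On the log2 ratio scale the WT animals, 1 to 5, stood at -0.16, -0.19, 0.23, 0.28 and 0.05, and the KO animals at 0.21, 0.35, 0.40, 0.48 and 0.24. The groups overlapped, since the WT females lay level with the KO males. The difference was 0.24 (SE 0.07, 95% interval 0.09 to 0.40), and limma's adjusted p of 0.0735 missed the threshold. The second probe gave 0.22 (SE 0.07) at a lower signal and was well above background in 2 WT and 4 KO livers. The value was 0.46 within slide 1, where both WT livers are male, and -0.01 within slide 3, where the KO liver is male and the WT livers female. With slide in the model it was 0.29 as a fixed block and 0.26 as a random block, both past the threshold (limma adjusted p = 0.05, just under it before rounding, and 0.0297). The probe lies on chromosome 11 at 75616125 to 75616184.

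Slc43a3 belongs to the same family but carries purine nucleobases rather than amino acids, and is known from endothelial cells. The 5 WT log2 ratios, taken by animal number, were 0.07, 0.01, 0.51, 0.57 and 0.38, set against KO values of 0.47, 0.42, 0.41, 0.44 and 0.71. The lowest values were those of both WT males on slide 1, WT 5 was also below every KO liver, and WT 3 and WT 4 lay among the KO livers. The difference was 0.16 (SE 0.12, 95% interval -0.10 to 0.42, limma adjusted p = 0.49). With slide as a fixed block it was 0.32 and passed (limma adjusted p = 0.0401), and it was 0.41 within slide 1 and 0.17 within slide 3. Of 8 endothelial markers measured 3 rose and none fell (2.88% and 3.08% of all genes did), led by Lyve1 (1.47), with Oit3 at 0.34 and Pecam1 at 0.26. Without both male KO livers none of the 3 passed (limma adjusted p 0.104, 0.264 and 0.177), and Lyve1 did not pass on the scanner's log ratio (1.08, adjusted p = 0.257). The mean of the 8 was 3.47 to 4.04 in WT and 4.10 to 4.37 in KO livers, and its part in the Slc43a3 values was not tested. Dropping a single liver ended the Oit3 call for every liver but WT 1 and KO 3 (adjusted p 0.0685 to 0.138) and the Pecam1 call for every liver but WT 5 (0.0518 to 0.13). The Slc43a3 probe lies on chromosome 2 at 84801546 to 84801605, and in RefSeq's GRCm38.p6 gene order 1 protein-coding gene, Rtn4rl2, lies between it and Slc43a1.

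**Figure D2:**
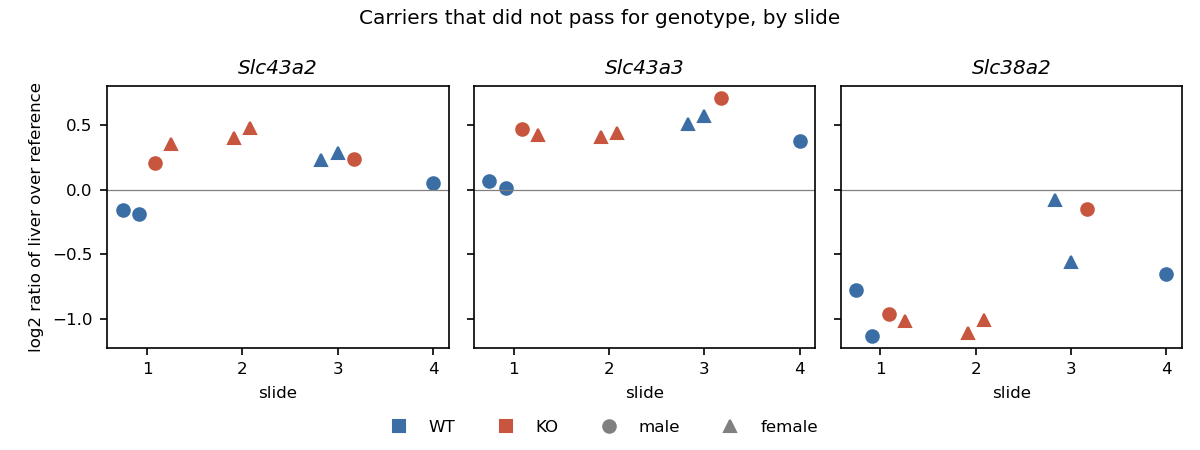
Log2 ratio of liver over reference for Slc43a2, Slc43a3 and Slc38a2, each liver placed by its slide (1 to 4); blue is WT, red KO, circles males and triangles females. On slide 1 both WT livers lie below both KO livers in Slc43a2 and Slc43a3, and in Slc38a2 the 4 livers of slides 3 and 4 lie above those of slides 1 and 2.

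Slc38a4 encodes SNAT4, a sodium-coupled carrier of small neutral amino acids that is characteristic of liver. WT 1 to WT 5 had log2 ratios of 7.02, 7.05, 6.99, 6.89 and 6.68, while KO 1 to KO 5 had 6.23, 5.75, 5.93, 6.0 and 6.03. All livers were far above the reference, and the lowest WT liver was above the highest KO liver. The means were 6.92 ± 0.15 and 5.99 ± 0.17 (SD, n = 5 each), a difference of -0.91 (SE 0.10, limma adjusted p = 0.000411) or 1.88-fold. A second probe also separated the groups, at 4.50 ± 0.25 and 3.69 ± 0.32, with a difference of -0.77 (SE 0.16, limma adjusted p = 0.0156 among probes). Within slide 1 the difference was -1.04 and within slide 3 -0.91. It failed where outlier spots were removed only after the background fit (-0.71, adjusted p = 0.323), since WT 5 then had 5.38 in place of 6.68. The probes lie on chromosome 15 at 96996509 to 96996450 and at 97017540 to 97014865, the second a span longer than the probe.

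Slc38a2 encodes SNAT2, a widely expressed carrier of the same system that is known to be raised by amino acid shortage. On the log2 ratio scale the WT animals, 1 to 5, stood at -0.78, -1.13, -0.08, -0.56 and -0.65, and the KO animals at -0.96, -1.02, -1.11, -1.01 and -0.15. The KO liver on slide 3, KO 5, lay with the WT livers of its slide and apart from the other KO livers. The difference was -0.21 (SE 0.22, 95% interval -0.69 to 0.26, limma adjusted p = 0.641), and it turned to 0.04 with slide as a fixed block. It was -0.03 within slide 1 and 0.17 within slide 3. Without both male KO livers it was -0.73 and passed (limma adjusted p = 0.044), a value that sets KO females of slides 1 and 2 against WT females of slide 3, so slide and genotype cannot be told apart there. The other 3 probes gave -0.22, -0.04 and -0.22, and none passed. The probe of the gene lies on chromosome 15 at 96689518 to 96689459, and no protein-coding gene lies between Slc38a2 and Slc38a4 in RefSeq's GRCm38.p6 order.

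Slc6a6 encodes TauT, the taurine carrier, and taurine is used by liver to conjugate bile acids and to hold cell volume. The 5 WT log2 ratios, taken by animal number, were 0.49, 0.16, 0.57, 0.52 and 0.53, set against KO values of 0.75, 1.21, 1.48, 1.28 and 0.82. The 3 KO females were the highest, the 2 KO males came next, and all WT livers were lower. The means were 0.45 ± 0.17 and 1.11 ± 0.31 (SD, n = 5 each), a difference of 0.59 (SE 0.10, limma adjusted p = 0.00833) or 1.5-fold. Its second probe, at a far lower signal, gave 0.31 (SE 0.12) and did not pass (limma adjusted p = 0.173 among probes), and its groups overlapped. Within slide 1 the difference was 0.65, with male WT livers against male KO 1 (0.75) and female KO 2 (1.21). Within slide 3, male KO against female WT, it was 0.28. The probes lie on chromosome 6 at 91841129 to 91841188 and at 91832302 to 91832804.

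Slc6a9 encodes GlyT1, the glycine carrier. WT 1 to WT 5 had log2 ratios of 0.58, 0.54, 0.72, 0.27 and 0.67, while KO 1 to KO 5 had 1.35, 1.09, 0.95, 0.88 and 1.27. Here the KO males were above the KO females, the reverse of Slc6a6. The means were 0.55 ± 0.17 and 1.11 ± 0.20 (SD, n = 5 each), a difference of 0.60 (SE 0.10, limma adjusted p = 0.00454) or 1.51-fold. It was 0.66 within slide 1 and 0.78 within slide 3. Without both male KO livers it was 0.48 and did not pass (limma adjusted p = 0.0822). GlyT1 is also known from red cell precursors. Of 4 erythroid markers measured none rose and 1, Klf1, fell (-0.63, limma adjusted p = 0.00515), where 2.88% of all genes rose and 3.08% fell. The Klf1 call was lost with late removal of outlier spots (0.0774), on the scanner's log ratio (0.078) and with median centring (0.0574). The list mean was 2.40 to 3.04 in WT and 2.22 to 2.89 in KO livers. Alas2 of this list differed by sex (female minus male -2.19), and the part of red cell precursors in the Slc6a9 values was not tested. The probe lies on chromosome 4 at 117245669 to 117245728.

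Slc6a12 encodes BGT1, which takes up betaine and GABA. On the log2 ratio scale the WT animals, 1 to 5, stood at 3.15, 3.07, 3.21, 2.95 and 3.19, and the KO animals at 2.73, 2.91, 2.93, 2.79 and 2.54. The groups did not overlap, but WT 4 and KO 3 were close to touching. The means were 3.11 ± 0.11 and 2.78 ± 0.16 (SD, n = 5 each), and the sex-adjusted difference was -0.35 (SE 0.09, limma adjusted p = 0.0371) or 1.28-fold, the smallest among the carriers that passed. It was -0.29 within slide 1 and -0.54 within slide 3, and passed with slide as a fixed block (-0.37, limma adjusted p = 0.0411). Dropping a single liver ended the call for every liver but WT 4 and KO 3, that is for WT 1, 2, 3 and 5 and KO 1, 2, 4 and 5 (limma adjusted p 0.0519 to 0.11), as did dropping both male KO livers (-0.20, adjusted p = 0.339). It was also lost with median centring (adjusted p = 0.567), with outlier spots removed after the background fit (0.24) and with no sex term (0.0657). The probe lies on chromosome 6 at 121390824 to 121390883.

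Slc6a13 encodes GAT2, a GABA carrier that is strong in liver, and its gene is the direct neighbour of Slc6a12 in RefSeq's GRCm38.p6 order. The 5 WT log2 ratios, taken by animal number, were 6.19, 6.39, 6.44, 6.12 and 6.39, set against KO values of 6.37, 6.36, 6.38, 6.43 and 6.30. All KO livers lay within the range of the WT livers. The difference was 0.06 (SE 0.08, 95% interval -0.12 to 0.23, limma adjusted p = 0.733). With the Cy5 channel alone it was 0.26 (SE 0.07, adjusted p = 0.0615) and with late removal of outlier spots 0.21 (SE 0.17, adjusted p = 0.662), so its size depended on the processing. The second probe gave 0.08 (SE 0.09). The probes overlap, on chromosome 6 at 121362880 to 121362939 and at 121362860 to 121362919.

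**Figure D3:**
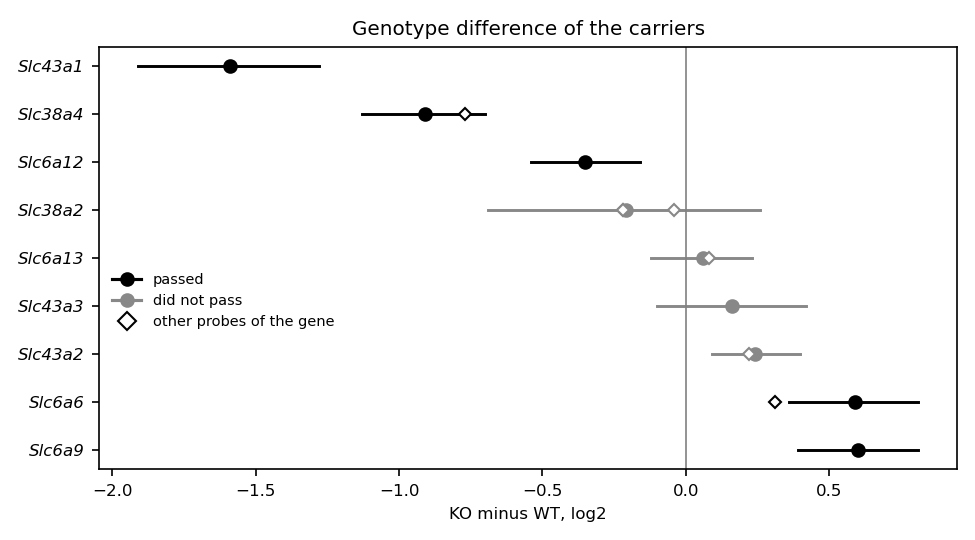
KO minus WT difference of each carrier on the log2 scale with sex in the model; circles are the probe that represents the gene with its 95% interval, black where the adjusted p was under 0.05, and diamonds are other probes of the gene. Slc43a1 (-1.59) and Slc38a4 (-0.91) lie furthest below 0 and Slc6a6 (0.59) and Slc6a9 (0.60) furthest above.

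The genotype difference was also fitted within each sex, on 3 KO and 2 WT females and 2 KO and 3 WT males. The KO females were on slides 1 and 2 and the WT females on slide 3, so slide and genotype cannot be told apart within females. In females 3 carriers had an adjusted p under 0.05 (4.43% of all genes did) and in males 4 (2.36% did), but none of the 9 passed the test of the difference between the sexes, which 6 of 18921 genes (0.0317%) passed. Slc43a1 was at -1.77 (SE 0.20) in females and -1.42 (SE 0.20) in males. Slc38a4 was at -1.04 (SE 0.13) in females and -0.78 (SE 0.13) in males, so both carriers were below 0 in each sex. Slc6a6 was at 0.78 (SE 0.13) in females and 0.39 (SE 0.13) in males, a gap of 0.39 (SE 0.18, limma adjusted p = 0.407). Slc6a9 was at 0.48 (SE 0.13) in females and 0.72 (SE 0.13) in males. Slc6a12 was at -0.20 (SE 0.11) in females and -0.50 (SE 0.11) in males. Slc43a3 (-0.11 and 0.44) and Slc38a2 (-0.73 and 0.30) had opposite signs in females and males. Their gaps of -0.55 (SE 0.17) and -1.03 (SE 0.32) had unadjusted p values of 0.00885 and 0.00875 and a limma adjusted p of 0.268 each, where 12.5% of all genes had an unadjusted p under 0.05.

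**Figure D4:**
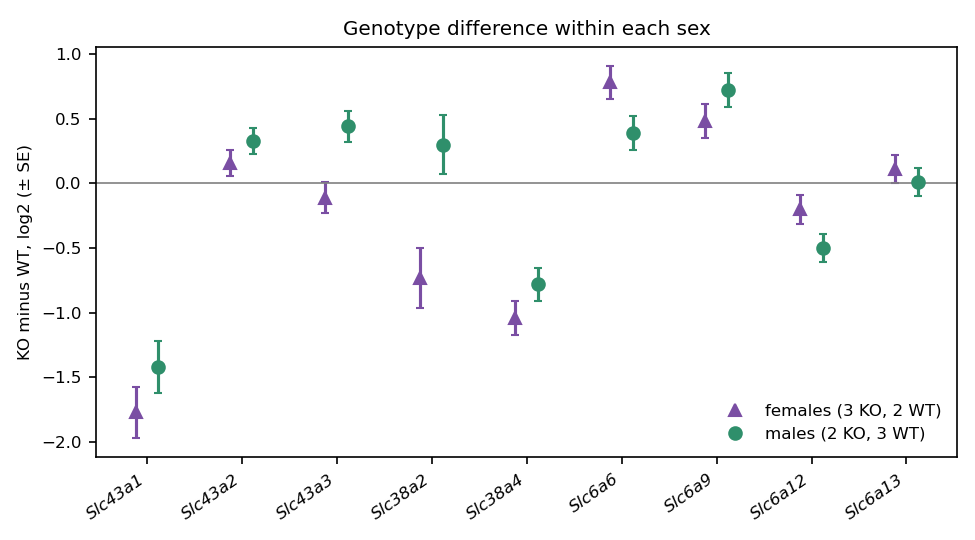
KO minus WT difference on the log2 scale within females (triangles, 3 KO and 2 WT) and within males (circles, 2 KO and 3 WT), with standard errors. Slc43a1 and Slc38a4 are below 0 in both sexes and Slc6a6 and Slc6a9 above 0 in both, while Slc43a3 and Slc38a2 lie on opposite sides. Within females slide and genotype cannot be told apart.

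Between the sexes themselves 1 of the 9 carriers passed, against 11.5% of all genes (4.99% higher in females, 6.55% in males). Slc43a2 was higher in females by 0.27 (SE 0.07, limma adjusted p = 0.0338), with -0.19 to 0.05 in WT males, 0.23 to 0.28 in WT females, 0.21 to 0.24 in KO males and 0.35 to 0.48 in KO females. The ranges of the sexes did not overlap within either genotype. Dropping a single liver ended this call for WT 1 to WT 4, KO 1, KO 3 and KO 4 (limma adjusted p 0.0571 to 0.0971), as did fitting slide as a fixed block (0.0845). Slc6a6 was next at 0.35 (SE 0.10, limma adjusted p = 0.0558), and its second probe had 0.46 (SE 0.12) with an adjusted p of 0.0315 among probes. The other 7 carriers lay between -0.22 for Slc6a9 and 0.26 for Slc43a1.

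Of 25 other SLC38 and SLC6 carriers listed 15 were measured, of which 1 rose and 1 fell, with a median of 0.04. Across all genes tested 2.88% rose and 3.08% fell. The creatine carrier Slc6a8 rose by 0.50 (SE 0.09, limma adjusted p = 0.0106), and the glutamine carrier Slc38a3 fell (-0.32, SE 0.08, adjusted p = 0.0372). Dropping a single liver ended the Slc38a3 call for every liver but WT 2, WT 4 and KO 3 (0.0541 to 0.123), as did leaving out both male KO livers (0.155). Its size varied from -1.32 with the Cy5 channel alone (adjusted p = 2.37e-05) to -0.21 on the scanner's log ratio (0.12). Of 20 amino acid carriers of other families 6 fell and 1 rose (3.08% and 2.88% of all genes did), with a median of -0.06. The falls were led by Slc3a1 (-1.91, SE 0.23), the heavy subunit of a cystine and dibasic amino acid carrier, the arginine carrier Slc7a2 (-1.55, SE 0.13) and the proton-coupled carrier Slc36a1 (-0.79, SE 0.08). They included the glutamate carrier Slc1a2 (-0.63, SE 0.10; -0.02 on the scanner's log ratio and -1.07 with the Cy5 channel alone) and the aromatic amino acid carrier Slc16a10 (-0.59, SE 0.15), and the light subunit Slc7a7 rose by 0.64 (SE 0.11). The call of Slc16a10 ended with each WT liver, KO 1 or KO 3 left out (0.052 to 0.15). With the mean of its kept probes Slc16a10 was at -0.31 (limma adjusted p = 0.0912), and with slide as a fixed block at -0.38 (0.211). It passed in 7 of 24 alternatives. Without both male KO livers Slc16a10 (0.118) and Slc7a7 (0.0504) did not pass, and with late removal of outlier spots Slc6a8 (0.0802), Slc38a3 (0.455), Slc3a1 (0.0815), Slc7a2 (0.0843), Slc1a2 (0.699) and Slc16a10 (0.267) did not. Median centring lost Slc36a1 (0.0604), Slc6a8 (0.0547), Slc38a3 (0.302), Slc1a2 (0.135) and Slc16a10 (0.211). A block for replicate number lost Slc6a8 (0.111), Slc38a3 (0.0957) and Slc7a7 (0.0667).

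Enzymes that make or use what the SLC6 members carry changed in both directions. Of 13 measured 2 rose and 3 fell (2.88% and 3.08% of all genes did), with a median of -0.13. Csad, which makes the precursor of taurine, rose by 0.99 (SE 0.14, limma adjusted p = 0.00194), and Chdh, which makes betaine aldehyde from choline, rose by 0.34 (SE 0.07, adjusted p = 0.0236). The GABA transaminase Abat (-0.51, SE 0.13), the betaine aldehyde and lysine pathway dehydrogenase Aldh7a1 (-0.45, SE 0.09) and the sarcosine dehydrogenase Sardh (-0.45, SE 0.10) fell. Calls lost on leaving out 1 liver were Chdh (WT 4, KO 1, KO 2 or KO 4, adjusted p 0.0537 to 0.09), Sardh (WT 4, KO 1, KO 2 or KO 5, 0.0537 to 0.0756), Aldh7a1 (KO 1, 0.0534) and Abat (any liver but WT 5, 0.0519 to 0.146). Without both male KO livers these same 4 genes did not pass (Chdh 0.0805, Sardh 0.254, Aldh7a1 0.167 and Abat 0.0866), and with late removal of outlier spots Chdh (0.392), Aldh7a1 (0.591) and Abat (0.827) did not. Median centring lost the same 4 (Chdh 0.211, Sardh 0.232, Aldh7a1 0.345 and Abat 0.442). With the mean of its kept probes Chdh was at 0.16 and did not pass (limma adjusted p = 0.186). Of 24 alternatives Csad passed in 23, Aldh7a1 in 18, Sardh in 17, Chdh in 11 and Abat in 8. Of 6 genes of cell volume and tonicity, a response in which Slc6a6 and Slc6a12 also take part, 1 rose and none fell. That was Akr1b3, the aldose reductase that makes the osmolyte sorbitol, by 0.94 (SE 0.10, limma adjusted p = 0.000403). Picked after their values were seen, Nfat5, the factor of this response, was at -0.64 (SE 0.24, adjusted p = 0.148) and the inositol carrier Slc5a3 at 0.25 (SE 0.13, adjusted p = 0.285). Nfat5 was at -1.1 in females and -0.18 in males, a gap of -0.92 (adjusted p = 0.387). It also differed by sex itself (female minus male -2.2, limma adjusted p = 0.000142).

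**Figure D5:**
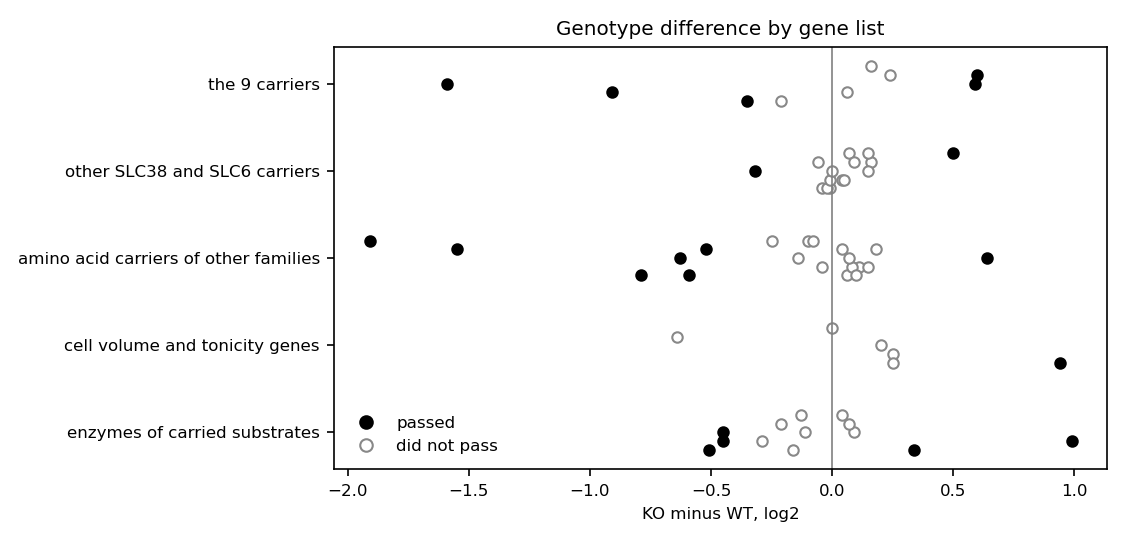
KO minus WT difference on the log2 scale for each measured gene of 5 lists, filled where the adjusted p was under 0.05 and open where not; the vertical spread within a list is only for legibility. The 9 carriers hold 3 filled points below and 2 above 0, the other SLC38 and SLC6 carriers 1 on each side.

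The genes whose profile over the 10 livers came closest to each carrier that passed were found by the root mean square difference of log2 profiles centred on their own means. Closest to Slc43a1 was Neb, a giant muscle filament protein, at 0.200 against a spread of 0.812 for Slc43a1 itself. A probe named only NAP094000-001 followed at 0.244. Closest to Slc38a4, with a spread of 0.490, were Tmem25 (0.119) and Cyth1 (0.158). For Slc6a6 (0.397) they were the collagen receptor Ddr1 (0.120) and the adhesion protein gene Nectin3 (0.121), and for Slc6a9 (0.324) Zcchc2 (0.098) and the phospholipase Ddhd2 (0.129). For Slc6a12 (0.205) they were the sulfurtransferase Tst (0.050) and Alkbh7 (0.056). Of these 10 genes 9 passed for genotype in the direction of their carrier, and Tst (-0.29, limma adjusted p = 0.0627) did not. Without both male KO livers Alkbh7 (0.244) and Zcchc2 (0.146) did not pass either. With late removal of outlier spots Tmem25 (0.534), Ddr1 (0.196) and Alkbh7 (0.141) did not. Median centring lost Tmem25 (0.0895), Cyth1 (0.0967) and Alkbh7 (0.575). This likeness includes the genotype difference itself and is a description.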

How the data were processed

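Each of the 10 livers has 1 array, read with Agilent's Feature Extraction software (10.7 per the submitters' processing notes, 10.7.3.1 per the file headers). Spot means and background medians in the deposited scanner output are linear intensity, and its LogRatio column is deposited as log10 of Cy5 over Cy3. The authors' series table holds log2 ratios, and how it was normalised before deposit is not stated in the submitters' processing notes. The base was read from the size of its KO minus WT differences. These were -7.62 for Gcgr and -1.6 for Slc43a1, against -7.66 and -1.59 with the log2 ratios used here. Its correlation with those ratios was 0.9994 to 0.9996, a value that does not depend on the base. Its column medians were 0.00776 to 0.023. Cy5 always held liver RNA, so dye effects of a probe are shared by all livers.

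Spots flagged as outliers (169 to 291 per array) were left out, signals were corrected with normexp (offset 50), and log2 ratios were normalised by loess within arrays, with control spots at weight 0. Spots of a probe were averaged. A probe was kept if at least 4 arrays had it well above background in Cy5 (26933 were), and the probe with the highest mean Cy5 signal represented its gene. Of 41174 probes a RefSeq accession named 22951, a symbol 6659 and an older synonym 3109, while 8455 stayed with the file's own name. No carrier had a missing value; 64 of all genes did, and were fitted on the remaining arrays. The model in limma 3.58.1 (R 4.3.3) held genotype and sex, with Benjamini-Hochberg adjustment over all genes, and a second model held their product. The fit was tested on simulated data. Probes were also fitted one by one for carriers with several.

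The carriers, the gene lists and the order of outlier removal were chosen with earlier results of these data known. The text names all carriers, up to 6 genes past the threshold from each other list, and the 2 closest profiles of each carrier that passed; marker genes were named after their values were seen. Alternatives changed the background step, normalisation, channel, filter, probe choice, sex term, slide, replicate number and livers used. The series describes separate mice, so each liver was 1 replicate. The number of arrays limits the precision.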

Additional observations from a re-analysis of the deposited data

Results flagged for a closer look

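In 3 of 18 groups of 5 livers 1 liver lay far from the other 4, by a gap of over 0.71 of the group's range. Chance alone gives about 1 in 20 groups where groups are independent, but these 18 share the same 10 livers. The share over all genes was not counted, so 3 of 18 is not read as an excess. For Slc43a3 in KO livers, KO 5 was at 0.71 against 0.41 to 0.47 in the other KO livers. For Slc38a2 in KO livers, KO 5 was at -0.15 against -1.11 to -0.96. KO 5 is the only KO liver on slide 3, whose WT livers were at 0.51 and 0.57 for Slc43a3 and at -0.08 and -0.56 for Slc38a2; the part of slide in these values was not tested. For Slc6a6 in WT livers, WT 2 was at 0.16 against 0.49 to 0.57.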

How the results depend on the processing

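The genes passing for genotype numbered 339 with outlier spots removed after the background fit, 279 with median centring, 619 with no sex term, 303 with the replicate block and 590 to 1173 on leaving out 1 liver. Those passing for sex numbered 780, 916 and 139 (replicate block), and 1429 without both male KO livers. Carriers that rose numbered 4 with slide as a fixed block (Slc43a2 and Slc43a3 added), 0 with the replicate block and 1 without both male KO livers, and those that fell 1 with outlier spots removed late. No carrier passed for sex (0) with outlier spots removed late, median centring, the Cy5 channel alone, slide as a fixed block, the replicate block and without both male KO livers; there were 2 with slide as a random block and 0 to 2 on leaving out 1 liver. With the mean of kept probes Slc43a2 also missed for sex (0.21, limma adjusted p = 0.0556), and Slc6a6 passed in its place (0.40, 0.027). Replicate numbers did not pair the livers (correlations of deviations -0.31 to 0.25, and 1 of 10 livers matched its own number best); with the block Slc6a6, Slc6a9 and Slc6a12 had limma adjusted p values of 0.0932, 0.0557 and 0.14. Small differences changed sign. For KO minus WT these were Slc6a13 (-0.01 on the scanner ratio, 0.26 with the Cy5 channel alone, and -0.01 to 0.11 on leaving out 1 liver), Slc38a2 (0.04, slide fixed) and Slc43a3 (-0.11, without both male KO livers). For female minus male they were Slc38a4 (0.11 with late outlier removal, 0.02 without both male KO livers), Slc6a9 (0.00, replicate block), Slc6a12 (-0.06, without both male KO livers), Slc38a2 (-0.11 and -0.07 with slide fixed and random, -0.19 to 0.30 leaving out 1 liver) and Slc6a13 (0.00 with the authors' table, -0.12 with the replicate block, -0.05 without both male KO livers, -0.05 to 0.08 leaving out 1 liver). The cause was not tested. Slc43a1 passed in 23 of 23 alternatives, Slc38a4 and Slc6a6 in 23 of 24, Slc6a9 in 22 and Slc6a12 in 11. Aquantile between arrays leaves log ratios as they are and gave the same values. Changes of the filter on dim probes also left the difference of each carrier kept as it was. So did the mean of kept probes for carriers with 1 probe. These settings are among the alternatives counted, so the counts are a description. Low signal limits Slc43a1 and Slc43a2.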
